A study of Mus musculus with 6 samples.

Results

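The 8 genes described here are the signalling Smads, Smad1, Smad2, Smad3, Smad4, Smad5 and Smad9, and the ubiquitin ligases Smurf1 and Smurf2, out of 18193 genes on the array with a probe set of 1 gene symbol. They were taken as every probe set whose single platform symbol was one of these names, which gave 20 probe sets, and 18 of them were bright enough to be tested. RNA of whole mouse lung was hybridised to 6 Affymetrix arrays, each a pool of 3 mice, 18 mice in all. The groups were lungs of SM22-dnBMPR2 inducible transgenic mice activated for 8 weeks, the same kind of mice activated for 1 week, and controls, each with 1 female and 1 male pool. The transgene is a dominant-negative form of BMPR2, the type II receptor for bone morphogenetic proteins (BMPs), and SM22 is a smooth muscle promoter, here used with the tetracycline-controlled transactivator rtTA. Right ventricular pressure was raised in all transgenic mice, per the series description. That description gave the controls as mice with the transactivator alone. The male control label reads SM22-rtTA only, and the female control label names only the FVB/N strain. The same pair of control pools served both durations, and the labels gave no age, inducer or activation time for it, so differences in age, inducer and handling cannot be told apart from that of the transgene.

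BMP receptors phosphorylate Smad1, Smad5 and Smad9, and the receptors for transforming growth factor beta (TGF-beta) and activin phosphorylate Smad2 and Smad3. The phosphorylated Smads bind the common partner Smad4 and move to the nucleus, where they regulate genes such as the Id genes and the inhibitory Smads. Smurf1 and Smurf2 are ubiquitin ligases of the HECT class that mark Smads and, with the inhibitory Smads as adaptors, receptors for degradation. The arrays measured transcripts, so they hold no value for phosphorylation, protein or ligase activity.

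The changes furthest from 0 were in Smurf2. At 8 weeks, 2 of the 3 Smurf2 probe sets were near 0.5 of the control level in the female and male pools together, at 0.495-fold and 0.449-fold. These 2 are tied to the same transcript record. The third, which was the brightest of the 3, was at 0.937-fold. The Smurf1 probe set that could be tested was at 1.44-fold. The Smad probe sets lay between 0.626-fold, for Smad5 1421047_at, and 1.26-fold. They were closer to control than the Smurf2 probe sets at 0.495-fold and 0.449-fold, but not all were closer than Smurf1. None of these changes passed the test, which asked for a limma p below 0.05 after Benjamini-Hochberg adjustment over all 27022 tested probe sets. Changes are differences in log2 intensity after quantile normalization, with 2 pools a group. Fewer cells of a type and less RNA per cell cannot be told apart in whole lung.

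The promoters of both ligases are printed because Smurf2 had the lowest and Smurf1 the highest change at 8 weeks among the tested probe sets of the 8 genes. They are the 300 bases around the start of each gene, on the minus strand, from RefSeq for build GRCm38.p6, and read 5′ to 3′. Capitals mark 4 short motifs, each searched as written and as its reverse complement: CAGAC, known as a Smad-binding element, GGCGCC, a GC-rich Smad motif, GGGCGG, the GC box of Sp1 factors, and TGACG, the core of the cAMP response element.
Smurf1, chr5:144965781-144966080: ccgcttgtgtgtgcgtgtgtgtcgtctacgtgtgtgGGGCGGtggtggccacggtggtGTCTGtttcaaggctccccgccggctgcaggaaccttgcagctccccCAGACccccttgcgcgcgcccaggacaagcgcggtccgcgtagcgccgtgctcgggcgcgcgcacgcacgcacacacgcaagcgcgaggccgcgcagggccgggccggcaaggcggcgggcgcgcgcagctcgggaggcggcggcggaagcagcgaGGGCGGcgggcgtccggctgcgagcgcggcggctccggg
Smurf2, chr11:106920666-106920965: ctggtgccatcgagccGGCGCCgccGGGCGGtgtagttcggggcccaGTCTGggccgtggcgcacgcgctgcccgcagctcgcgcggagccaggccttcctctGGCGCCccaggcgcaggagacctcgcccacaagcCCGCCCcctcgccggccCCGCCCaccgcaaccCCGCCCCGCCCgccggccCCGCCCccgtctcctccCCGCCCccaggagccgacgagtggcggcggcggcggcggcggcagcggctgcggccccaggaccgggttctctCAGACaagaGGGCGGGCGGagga
The Smurf1 window held CAGAC 2 times and GGGCGG 2 times, with 0 matches to GGCGCC and TGACG. The Smurf2 window held CAGAC 2 times, GGCGCC 2 times and GGGCGG 9 times, some of them overlapping, with 0 matches to TGACG. Of all 32851 promoter windows of the same length, 49.6% held CAGAC, 11.9% GGCGCC, 35.7% GGGCGG and 20.8% TGACG. Both windows were rich in G and C, at 80.3% for Smurf2 and 76.3% for Smurf1, against a median of 52.7% over all windows. A match describes letters and is not evidence of binding.

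Smurf2, a ligase that acts on TGF-beta and BMP Smads, is at chr11:106820061-106920747 in GRCm38.p6. Its probe set 1429045_at had deposited intensities of 485.90 in the female and 475.97 in the male pool at 8 weeks, 851.15 and 893.75 at 1 week, and 1030.79 and 1066.34 in controls. In this order, female pool first, the normalized log2 values were 8.96 and 8.98 at 8 weeks, 9.72 and 9.81 at 1 week, and 9.96 and 10.01 in controls. The 3 groups did not overlap, with both 8 week pools lowest and both control pools highest. The group means were 8.97 ± 0.01 at 8 weeks, 9.76 ± 0.06 at 1 week and 9.98 ± 0.04 in controls (SD, n = 2 pools each). The change at 8 weeks against control was -1.02 ± 0.13 (SE; 95% interval -1.35 to -0.68) with adjusted p = 0.0589 by limma. It was -0.996 in females and -1.03 in males, so the sexes were close together. Of all tested probe sets, 1.09% had a smaller p in this comparison. Against 1 week, the 8 week change was -0.79 ± 0.13 (adjusted p = 0.116 by limma), and the 1 week change against control was -0.22 ± 0.13 (adjusted p = 0.937 by limma). The 8 week adjusted p lay between 0.00526 and 0.162 over the other settings with all pools, and 5 of these 10 settings put it below 0.05.

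A neighbouring Smurf2 probe set, 1429046_at, which the platform annotation ties to the same transcript record, had deposited intensities of 534.89 and 869.44 at 8 weeks, 1088.03 and 1016.82 at 1 week, and 1850.11 and 1464.82 in controls. The order of the groups was the same in both sexes, but the 8 week pools were far apart. The change at 8 weeks was -1.16 ± 0.29 (95% interval -1.90 to -0.41, adjusted p = 0.124 by limma), -1.69 in females and -0.62 in males. Leaving out the male 8 week pool gave -1.63, with adjusted p = 0.0373 by limma, and leaving out the female one gave -0.68. The third Smurf2 probe set, 1454894_at, belongs to another transcript record. It had log2 values of 10.51 and 10.46 at 8 weeks, 10.47 and 10.59 at 1 week, and 10.45 and 10.70 in controls, and the groups overlapped. Its 8 week change was -0.09 ± 0.14 (95% interval -0.47 to 0.28, adjusted p = 0.729 by limma), an interval that does not reach the change of 1429045_at. Within each pool, 1429045_at minus 1454894_at was -1.55 and -1.49 at 8 weeks, -0.75 and -0.78 at 1 week, and -0.50 and -0.69 in controls. The gap between these Smurf2 probe sets was thus widest in both 8 week pools. The sources used here do not say which exons the probe sets read, and why they differed was not tested.

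**Figure D1:**
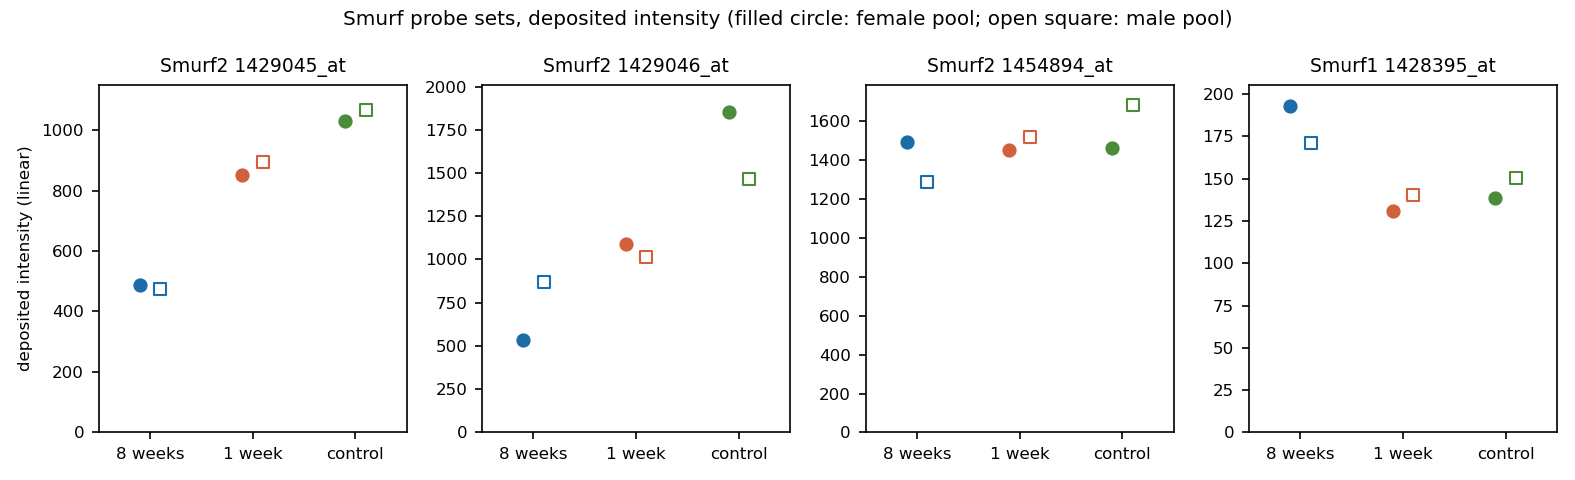
Deposited linear intensity (vertical axes start at 0) of 3 Smurf2 probe sets and 1 Smurf1 probe set, with the groups 8 weeks, 1 week and control from left to right, filled circles for female pools and open squares for male pools. Smurf2 1429045_at lies at 485.90 and 475.97 at 8 weeks, below both control pools at 1030.79 and 1066.34, while the Smurf2 1454894_at groups overlap.

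Smurf1, which was first described as a ligase for the BMP Smads, is at chr5:144876495-144965899. Its probe set 1428395_at had deposited intensities of 192.74 and 170.92 at 8 weeks, 130.95 and 140.26 at 1 week, and 138.63 and 150.53 in controls. On the normalized log2 scale these were 7.65 and 7.54 at 8 weeks, 6.98 and 7.15 at 1 week, and 6.96 and 7.19 in controls. Both 8 week pools were above all 4 others, and the 1 week and control pools overlapped. The change at 8 weeks against control was 0.52 ± 0.15 (95% interval 0.13 to 0.92), 0.69 in females and 0.35 in males, with adjusted p = 0.151 by limma. Against 1 week it was 0.53 ± 0.15 (adjusted p = 0.193 by limma), and at 1 week against control it was -0.01 ± 0.15. The other Smurf1 probe set, 1428396_at, was too dim to be tested, with log2 values of 4.84 and 4.49 at 8 weeks, 5.30 and 4.07 at 1 week, and 5.09 and 4.52 in controls.

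Among the BMP Smads, Smad1 had 3 tested probe sets that did not move together. Probe set 1459843_s_at had log2 values of 9.16 and 9.59 at 8 weeks, 8.97 and 9.33 at 1 week, and 9.25 and 9.45 in controls. Its groups overlapped, with a change of 0.03 ± 0.14 at 8 weeks (95% interval -0.33 to 0.39). Probe set 1448208_at had 9.08 and 9.44 at 8 weeks, 8.73 and 8.91 at 1 week, and 8.80 and 9.05 in controls, so both 8 week pools lay above both control pools. The 8 week change was 0.33 ± 0.13 (adjusted p = 0.231 by limma), and against 1 week it was 0.44 ± 0.13 (adjusted p = 0.207 by limma). Probe set 1416081_at, tied to the same transcript record as 1448208_at, went the other way. It had 7.73 and 7.43 at 8 weeks, 7.89 and 8.03 at 1 week, and 8.22 and 7.93 in controls, with a change of -0.49 ± 0.17 at 8 weeks (95% interval -0.95 to -0.04, adjusted p = 0.191 by limma). The 8 week change was -0.49 in females and -0.50 in males. Averaged over its 3 probe sets, Smad1 was at -0.04 at 8 weeks and -0.14 at 1 week against control.

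Smad5, the second BMP Smad, also had probe sets that differed. Probe set 1433641_at was nearly level, with log2 values of 9.26 and 9.25 at 8 weeks, 9.22 and 9.21 at 1 week, and 9.34 and 9.07 in controls, and a change of 0.06 ± 0.14 at 8 weeks. Probe set 1451873_a_at had 5.82 and 6.51 at 8 weeks, 5.77 and 6.34 at 1 week, and 6.04 and 6.09 in controls. In this probe set the female pool was below the male pool by 0.69 at 8 weeks, 0.57 at 1 week and 0.06 in controls, and the 8 week change was 0.10 ± 0.20. Probe set 1421047_at had 6.01 and 5.18 at 8 weeks, 6.11 and 6.18 at 1 week, and 6.32 and 6.23 in controls. Both 8 week pools lay below both control pools, with a change of -0.68 ± 0.25 (95% interval -1.34 to -0.01, adjusted p = 0.212 by limma) that was -0.31 in females and -1.05 in males. Smad9, the third BMP Smad, had 1 probe set, 1450265_at, with 5.08 and 5.53 at 8 weeks, 5.33 and 5.45 at 1 week, and 5.25 and 5.74 in controls. Its groups overlapped, and the 8 week change was -0.19 ± 0.16 (95% interval -0.60 to 0.22).

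**Figure D2:**
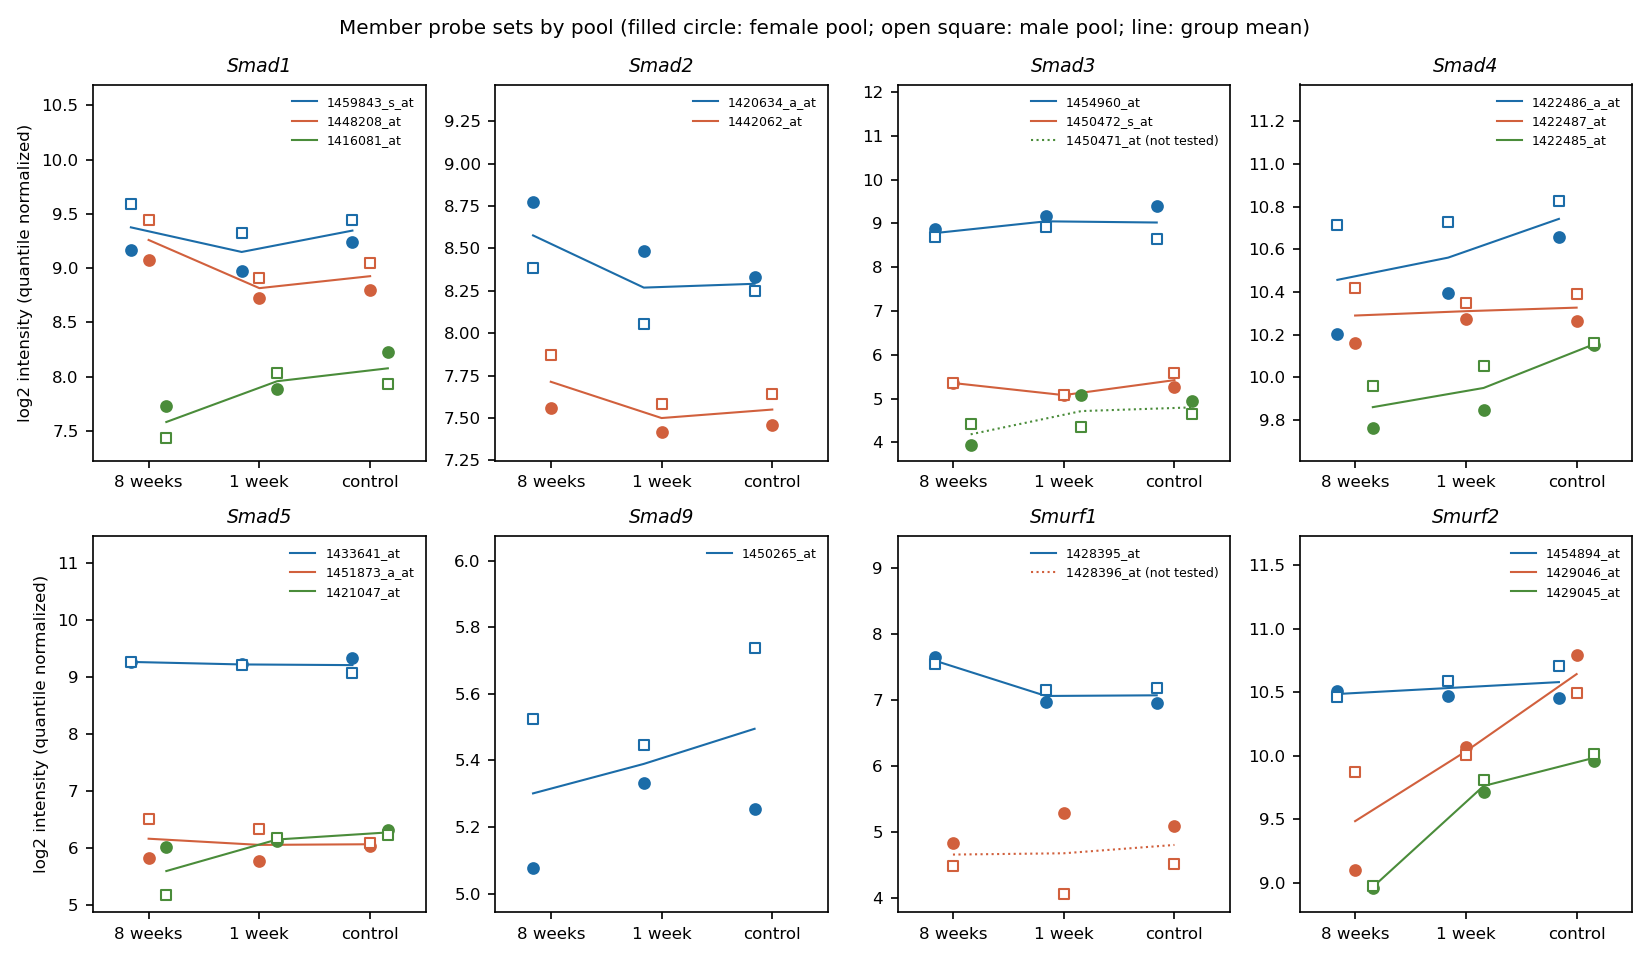
Normalized log2 intensity of all 20 probe sets by gene, each panel with its own vertical axis, groups 8 weeks, 1 week and control from left to right, filled circles for female pools, open squares for male pools, lines through group means, and dotted lines for the 2 probe sets not tested. Smurf2 1429045_at steps between 8.97 at 8 weeks and 9.98 in controls with the sexes close together, and the 8 week and control pools overlap for every Smad3 and Smad9 probe set that was tested.

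Of the TGF-beta Smads, Smad2 had 2 probe sets. Probe set 1420634_a_at had log2 values of 8.77 and 8.38 at 8 weeks, 8.49 and 8.05 at 1 week, and 8.33 and 8.25 in controls. Both 8 week pools lay above both control pools, but they overlapped those of 1 week, and the 8 week change was 0.29 ± 0.15 (95% interval -0.12 to 0.69, adjusted p = 0.334 by limma). Probe set 1442062_at had 7.56 and 7.87 at 8 weeks, 7.41 and 7.58 at 1 week, and 7.46 and 7.64 in controls, with overlapping groups and an 8 week change of 0.16 ± 0.13. Smad3, the other Smad of this branch, had its bright probe set 1454960_at at 8.86 and 8.70 at 8 weeks, 9.17 and 8.92 at 1 week, and 9.39 and 8.65 in controls. The female control was highest and the male control lowest, and the 8 week change was -0.24 ± 0.19 (95% interval -0.73 to 0.25), -0.52 in females and 0.04 in males. Probe set 1450472_s_at had 5.35 and 5.37 at 8 weeks, 5.09 and 5.08 at 1 week, and 5.26 and 5.59 in controls, so the 1 week pools were lowest, by 0.34 ± 0.15 below control (adjusted p = 0.911 by limma). The dim Smad3 probe set 1450471_at was not tested and was at the floor of 3.95 in the female 8 week pool.

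Smad4, the common partner of both branches, had 3 tested probe sets tied to 1 transcript record, and all 3 estimates were below control at 8 weeks. Probe set 1422486_a_at had 10.20 and 10.71 at 8 weeks, 10.39 and 10.73 at 1 week, and 10.66 and 10.83 in controls, with a change of -0.29 ± 0.15 at 8 weeks. Probe set 1422485_at had 9.76 and 9.96 at 8 weeks, 9.85 and 10.05 at 1 week, and 10.15 and 10.16 in controls. Here both 8 week pools and both 1 week pools lay below both controls, with changes of -0.30 ± 0.14 at 8 weeks (95% interval -0.65 to 0.06, adjusted p = 0.279 by limma) and -0.21 ± 0.14 at 1 week. Probe set 1422487_at had 10.16 and 10.42 at 8 weeks, 10.27 and 10.35 at 1 week, and 10.26 and 10.39 in controls, with an 8 week change of -0.04 ± 0.13. Smad4 averaged over its probe sets was at -0.21 at 8 weeks (adjusted p = 0.355 in a limma fit with 1 value per gene), where Smurf2 was at -0.75 (adjusted p = 0.0614) and Smurf1 at 0.52 (adjusted p = 0.11).

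**Figure D3:**
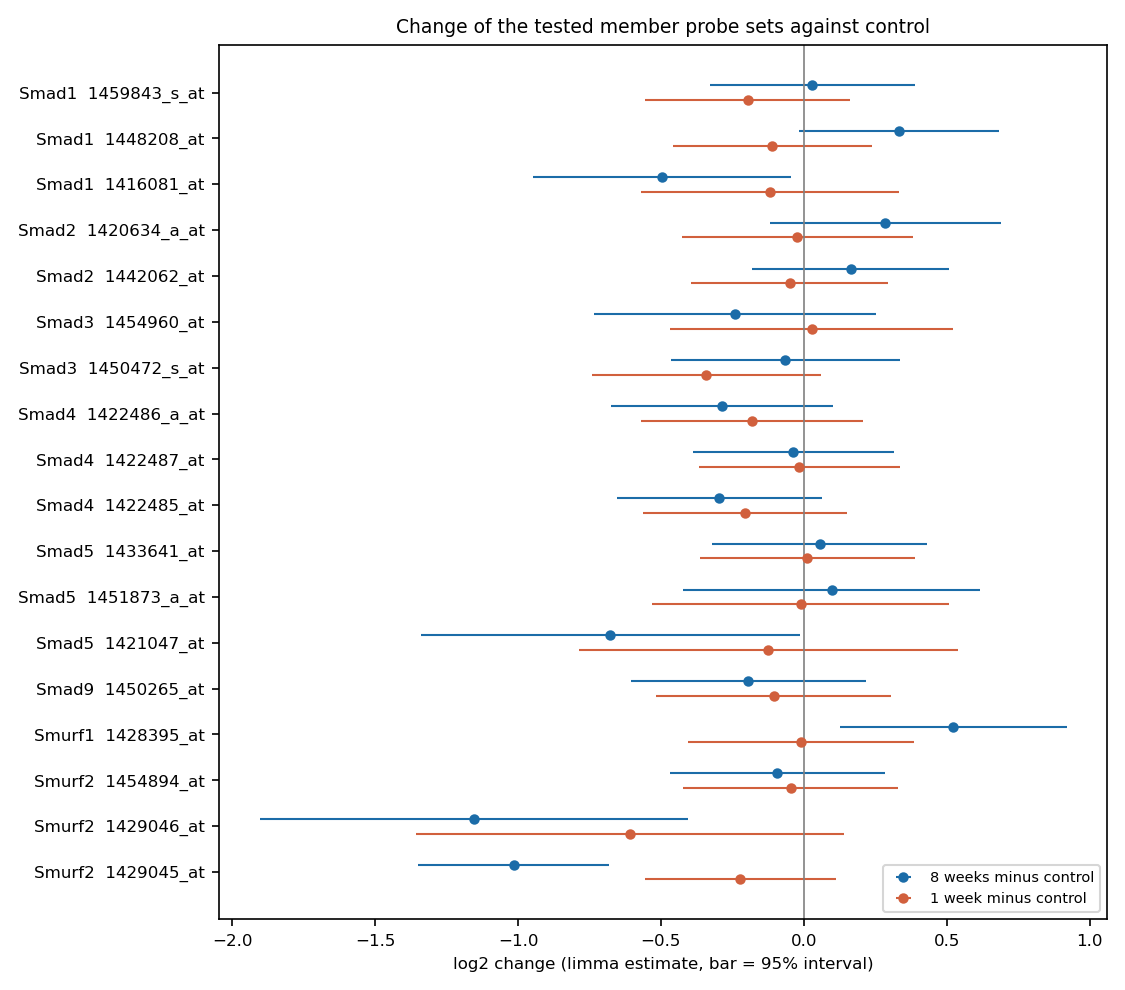
limma estimates of the log2 change of the 18 tested probe sets against control, with 8 weeks above 1 week in each row and bars for 95% intervals. At 8 weeks, Smurf2 1429045_at at -1.02 and 1429046_at at -1.16 lie furthest left and Smurf1 1428395_at at 0.52 furthest right, and all intervals at 1 week include 0.

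At 8 weeks against control, 0 of the 18 tested probe sets passed in limma, where 0.596% of all tested probe sets did. Between 0 and 2 of them, always Smurf2 probe sets, passed under the other settings tried. An unadjusted p below 0.05 was found for 5 of the 18, 1 higher (Smurf1 1428395_at) and 4 lower (Smurf2 1429045_at and 1429046_at, Smad1 1416081_at and Smad5 1421047_at). Together they were 27.8%, against 23% of all tested probe sets, of which 11.8% were higher and 11.2% lower. The 8 week and control pools did not overlap for 8 of the 18, which was 44.4%, against 41.8% of all. Both shares were near those of the array as a whole. In the main setting 11 of the 18 were below control, with a median change of -0.08 against 0.03 over all tested probe sets, of which 46.1% were below. That direction depended on the scaling: 15 of 18 were lower with the values as deposited, where 65.9% of all probe sets were lower with a median of -0.13, and 9 of 18 with arrays centred on their medians, where 35.6% of all were lower with a median of 0.14.

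At 1 week against control, 0 of 18 passed in limma, as did 0% of all tested probe sets, and 0 of 18 had an unadjusted p below 0.05, against 5.5% of all. The 1 week and control pools did not overlap for 5 of 18, all lower, which was 27.8%. Of all tested probe sets, 23.5% did not overlap in either direction and 11.1% were lower. They were Smurf2 1429045_at and 1429046_at, Smad4 1422485_at, Smad5 1421047_at and Smad3 1450472_s_at. By direction alone, 16 of 18 were below control with a median of -0.11, where 49.1% of all tested probe sets were below. The count was 18 of 18 with the values as deposited, where 61.6% of all were below, and 13 of 18 with arrays centred, where 42.1% were. Without the female 1 week pool it was 12 of 18, where 48.3% of all were below. It was 15 of 18 without the male 1 week pool, and 14 of 18 without the female or without the male control pool. At 8 weeks against 1 week, 0 of 18 passed, against 0% of all, and 3 had an unadjusted p below 0.05, which was 16.7% against 18.5% of all. Those 3 were Smurf2 1429045_at, Smurf1 1428395_at and Smad1 1448208_at. The pools of these groups did not overlap for 9 of 18, 4 higher and 5 lower, or 50% against 38.4% of all.

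With both durations averaged and set against control, 0 of 18 passed, against 0% of all, and 2 had an unadjusted p below 0.05, both lower, which was 11.1%, against 14% of all in either direction and 7.09% lower. They were Smurf2 1429045_at at -0.62 ± 0.11 (adjusted p = 0.208 by limma) and Smurf2 1429046_at at -0.88 ± 0.25 (adjusted p = 0.284 by limma). All 4 transgenic pools lay below both control pools for 4 of 18, or 22.2%, and 0 of 18 were apart the other way, against 13% of all in either direction and 6.3% lower. These were the same Smurf2 probe sets, Smad4 1422485_at and Smad5 1421047_at.

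Both sexes were lowest at 8 weeks, between at 1 week and highest in controls for 5 of the 18 probe sets, 2 of Smurf2, 2 of Smad4 and 1 of Smad5, where 8.16% of all tested probe sets had this order. The opposite order was found for 0 of the 18, against 9.07% of all. The 1 week and 8 week changes share their control pools, so part of such an order is common to both.

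Female pools were set against male pools over the 3 groups. Of the 18 probe sets, 0 passed in limma, where 8.3% of all tested probe sets did, and 4 had an unadjusted p below 0.05, all lower in females, which was 22.2%, against 29.7% of all in either direction and 17% lower. They were Smad5 1451873_a_at at -0.44 ± 0.16, Smad9 1450265_at at -0.35 ± 0.13, Smad4 1422486_a_at at -0.34 ± 0.12 and Smad1 1459843_s_at at -0.33 ± 0.11, with adjusted p between 0.138 and 0.158 by limma. In each of the 4 the female pool was below the male pool in all 3 groups. For 6 of 18 every female pool was below every male pool, or 33.3%, and 0 of 18 were apart the other way, against 30.4% of all in either direction and 17.2% lower. Whether the transgenic change differed between females and males was tested as an interaction, and 0 of 18 passed, against 0% of all, and 0 had an unadjusted p below 0.05, against 2.35% of all. For Smurf2 1429046_at the difference was -0.65 ± 0.63 (95% interval -2.32 to 1.02), and for 1429045_at the 95% interval ran from -1.88 to 1.88. This model took both durations together without a term for duration, so differences between 1 week and 8 weeks added to its spread. The width of these intervals is therefore not a measure of sex differences alone. Differences between the sexes of up to these sizes were not resolved by this model.

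**Figure D4:**
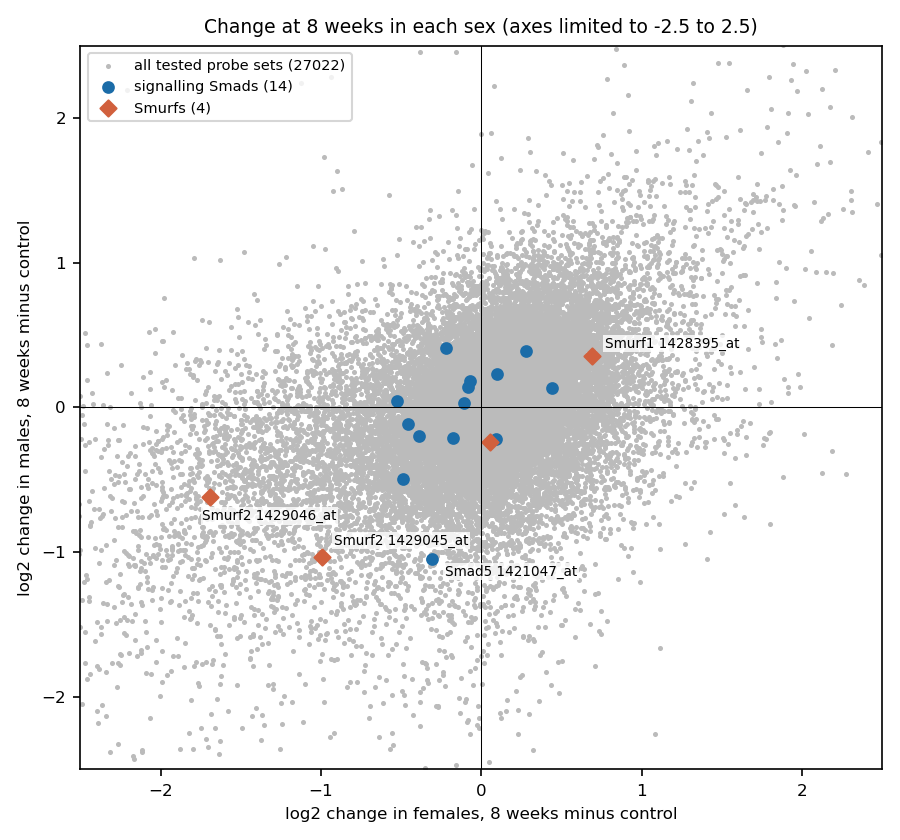
Log2 change between 8 weeks and control in females (horizontal axis) and males (vertical axis) for all 27022 tested probe sets (grey) with the 14 Smad probe sets as circles and the 4 Smurf probe sets as diamonds, both axes limited to 2.5 in each direction. Smurf2 1429045_at lies at -0.996 in females and -1.03 in males, 1429046_at at -1.69 and -0.62, and Smurf1 1428395_at at 0.69 and 0.35.

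Other genes of the pathway were taken as 4 lists, with 1 probe set a gene, the brightest. Of the inhibitory Smads and BMP readout genes, 0 of 6 passed at 8 weeks in limma, where 0.265% of all genes passed higher and 0.053% lower. An unadjusted p below 0.05 was found for 3 of the 6, all lower, where 20.1% of all genes had one, 6.26% lower, and the list's median was -0.44. Id4, an Id gene that blocks basic helix-loop-helix factors, was at -1.03 ± 0.21 (adjusted p = 0.1 by limma). Smad6, an inhibitory Smad of the BMP branch that works with the Smurfs, was at -0.82 ± 0.17 (adjusted p = 0.102), with log2 values of 10.09 and 9.34 at 8 weeks, 10.51 and 9.91 at 1 week, and 10.67 and 10.40 in controls. Id1, a direct BMP target, was at -0.50 ± 0.15 (adjusted p = 0.155). Smad7, the adaptor that brings Smurfs to the TGF-beta receptor, was at -0.38 ± 0.19 (adjusted p = 0.313). This Smad7 change was -0.66 in females and -0.10 in males. A dimmer Smad7 probe set was at -0.12 ± 0.16 (adjusted p = 0.704 by limma), -0.34 in females and 0.10 in males. In both Smad7 probe sets the 8 week and control pools overlapped. The other 2 genes of the list were Id2 at 0.30 ± 0.13 (adjusted p = 0.269), higher in both sexes, and Id3 at -0.02 ± 0.13 (adjusted p = 0.949). The estimates of the Id genes thus lay on both sides of 0. The median over all genes was 0.08.

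Of the BMP and TGF-beta receptors, 0 of 12 passed at 8 weeks in limma, with 1 higher and 3 lower at an unadjusted p below 0.05, where 20.1% of all genes had one and 6.26% were lower, and a median of -0.29. Bmpr1b, a BMP type I receptor, was at -0.67 ± 0.29, Tgfbr3, the co-receptor betaglycan, at -0.51 ± 0.16, Tgfbr1 at 0.46 ± 0.14 and Acvrl1, the endothelial type I receptor ALK1, at -0.41 ± 0.13. Bmpr2, whose dominant-negative form is the transgene, was at -0.26 ± 0.14 in its brightest probe set 1434310_at (adjusted p = 0.327 by limma). In 1419616_at, Bmpr2 had log2 values of 7.73 and 7.68 at 8 weeks, 7.92 and 8.47 at 1 week, and 8.67 and 8.60 in controls, a change of -0.93 ± 0.21 (adjusted p = 0.108 by limma), and in 1441652_at it was at 0.01 ± 0.18. The sources used here do not say whether any Bmpr2 probe set reads the transgene, so these values do not check the labels.

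Among Smad partners and repressors, 0 of 15 tested genes passed at 8 weeks, with 2 lower at an unadjusted p below 0.05, against the same 20.1% of all genes in either direction and 6.26% lower, and a median of -0.07. The 4 furthest from 0 were Zeb1 at -0.56 ± 0.26, the GC-box factor Sp1 at -0.52 ± 0.15, the co-activator Crebbp at -0.48 ± 0.16 and Lemd3, a nuclear envelope protein that binds Smads, at -0.23 ± 0.13. The Zeb1 change (adjusted p = 0.28 by limma) was -0.09 in females and -1.04 in males. Among the other Smad ubiquitin ligases, deubiquitinases and phosphatases, 0 of 16 passed, with a median of -0.17. An unadjusted p below 0.05 was found for 0 of these 16, against 20.1% of all genes in either direction and 6.26% lower. The 4 furthest from 0 were the cullin-ligase subunit Rbx1 at -0.64 ± 0.31 and the HECT ligases Nedd4 at -0.53 ± 0.21, Wwp1 at -0.37 ± 0.16 and Nedd4l at -0.31 ± 0.18. Rbx1 was dim, with log2 values of 4.74 and 5.25 at 8 weeks and 6.01 and 5.27 in controls. Its change was -1.26 in females and -0.02 in males. The change in females and males was -0.17 and -0.90 for Nedd4, -0.16 and -0.58 for Wwp1, and -0.02 and -0.59 for Nedd4l. Nedd4, Wwp1 and Nedd4l belong to the same family of ligases as the Smurfs. Between the sexes, Id2 was lower in females and passed, at -0.67 ± 0.11 (adjusted p = 0.0369 by limma), as 1 of the 6 inhibitory Smads and readout genes, and 4 of the 15 partners were lower in females and passed in limma, where 4.76% of all genes did. They included Tob1, an anti-proliferative repressor of BMP signalling, at -1.11 ± 0.11 (adjusted p = 0.0159), and Lemd3 at -0.95 ± 0.11 (adjusted p = 0.0207). The rest were Zfyve16, an endosomal Smad-binding protein, at -0.85 ± 0.13 (adjusted p = 0.0328) and Zeb2, a Smad-interacting repressor, at -0.82 ± 0.12 (adjusted p = 0.0295). Between the sexes, 0 of the 12 receptors and 0 of the 16 ligases, deubiquitinases and phosphatases passed. Their median differences, female minus male, were 0.08 and 0.17, against -0.02 over all genes.

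Summed levels of cell type markers also differed between the groups. The summed deposited intensity of 5 macrophage markers was 4162.85 to 6028.81 at 8 weeks, 927.27 to 1878.04 at 1 week and 605.34 to 1268.79 in controls. For 4 neutrophil markers it was 9136.51 to 9593.33 at 8 weeks, 2765.94 to 3852.01 at 1 week and 3201.81 to 3432.46 in controls, and Mmp8 and Mmp9 passed at 8 weeks in limma. In both lists, each marker was higher in both 8 week pools than in both control pools. The 5 cardiac muscle markers summed to 1918.13 to 3348.96 at 8 weeks, 9067.72 to 10211.17 at 1 week and 7897.62 to 8487 in controls, and 5 smooth muscle markers to 6057.70 to 7174.79 at 8 weeks, 9845.94 to 10898.98 at 1 week and 7920.98 to 10033.02 in controls. The lung epithelial markers Sftpc, Sftpb, Scgb1a1 and Ager summed to 32889.43 to 35684.35 at 8 weeks, 31160.37 to 36330.91 at 1 week and 33566.09 to 36371.24 in controls, so lung markers were bright in all pools. The 3 proliferation markers Mki67, Top2a and Cdk1 summed to 547.43 to 638.93 at 8 weeks, 385.04 to 565.41 at 1 week and 207.36 to 251.86 in controls. The 4 T cell markers summed to 459.77 to 774.87 at 8 weeks, 392.91 to 459.91 at 1 week and 482.79 to 763.23 in controls. Proliferation markers were thus higher in all 4 transgenic pools than in both controls. The summed T cell markers were lower in both 1 week pools than in both controls. On the log2 scale this held singly for 3 of the 4 T cell markers, and the Cd3e pools overlapped. The 4 endothelial markers summed to 9342.92 to 10435.06 at 8 weeks, 10940.44 to 11133.69 at 1 week and 11166.30 to 11867.94 in controls, and 4 fibroblast markers to 6769.48 to 8104.09 at 8 weeks, 9420.38 to 9664.15 at 1 week and 8121.93 to 8985.02 in controls. No marker was at the lowest deposited value of 10 on all arrays. The part of these shifts in the Smurf and Smad values was not tested. Female and male labels matched Xist and the Y-linked genes in all 6 pools.

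For the pair of genes whose brightest probe set had the widest range of group means, the genes most alike over the 6 pools were listed by Pearson r among 12627 other genes. Smurf1 1428395_at was most like Ggact (r = 0.9968), Dohh (r = 0.9952) and Clec7a (r = 0.994), and 111 genes had r above 0.95. Clec7a, a receptor of myeloid cells, was itself at 1.57 at 8 weeks (adjusted p = 0.0761 by limma). The closer genes Ggact and Dohh were at 0.29 (adjusted p = 0.272 by limma) and 0.32 (adjusted p = 0.266 by limma). Smad2 1420634_a_at was most like D6Wsu163e (r = 0.9973), Ncan (r = 0.9953) and Sh3tc1 (r = 0.9905), with 62 genes above 0.95. With 6 pools, such values describe these arrays, and the pools share their sex and group differences.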

How the data were processed

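The authors deposited 1 signal intensity per probe set and array, linear and never under 10. How they summarised and scaled the probe signals is not given in the sources used here. The labels describe biotin-labelled antisense RNA. Median intensity was 50.49 to 63.41 per array, 11.1% to 12.5% of values were at the lowest value, and correlations between arrays over tested probe sets were 0.9051 to 0.9797.

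Quantile normalization was applied, a floor was set at the 20th percentile of all values (15.46, log2 3.95), and values were put on the log2 scale. A level at the floor is only a bound. Tested probe sets were those with a mean over the arrays above the 40th percentile of such means, 27022 of 45037. limma 3.58.1 in R 4.3.3 fitted group and sex over all 6 arrays (2 residual degrees of freedom, prior 2.77). A second model held transgene, with both durations together, sex and their interaction, and no term for duration (prior 2.48). Benjamini-Hochberg adjustment ran over all tested probe sets of a comparison, and a probe set passed below 0.05. Each group has 1 pool of each sex, so the spread mixes differences between pools with sex differences in response, and the number of arrays limits the precision. An exact permutation of 2 pools against 2 cannot go below p = 0.333.

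Every probe set of the 8 genes was named. In each pathway list up to 4 genes were named by absolute 8 week change. Those that passed between the sexes, and the 8 week changes of Clec7a, Ggact and Dohh, were named after their values were seen. The members and lists were chosen with earlier results of these data known. Symbols came from the platform annotation, with 34945 probe sets of 1 symbol, 932 of several and 9160 of none. Gene positions and promoters came from RefSeq tables of GRCm38.p6, where all 8 members matched. The alternatives changed the scaling, the floor, the filter, the probe sets used, the terms and arrays in the fit and the variance model, or left out 1 pool. Plots used matplotlib 3.10.9 in Python 3.11.15.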

Additional observations from a re-analysis of the deposited data

How the results depend on the processing

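The count of tested probe sets of the 8 genes that passed was recomputed in 95 alternatives over 6 comparisons, and in 86 it stayed at 0. At 8 weeks against control it was 1 with the values as deposited (Smurf2 1429045_at at -1.12, adjusted p = 0.0411 by limma), 1 with the floor at the 40th percentile (adjusted p = 0.045), 1 with log2(value + 16) and no floor (-0.99, adjusted p = 0.034) and 1 with a stricter filter, at the 60th percentile (adjusted p = 0.0295), each time Smurf2 1429045_at. With trend and robust variances it was 2 at 8 weeks against control, Smurf2 1429045_at (adjusted p = 0.00526) and 1429046_at (adjusted p = 0.038). The same variances gave 1 at 8 weeks against 1 week (Smurf2 1429045_at, adjusted p = 0.0163), 1 for both durations against control (Smurf2 1429045_at, adjusted p = 0.0473) and 1 for female against male (Smad4 1422486_a_at, adjusted p = 0.0371). Leaving out 1 pool at a time gave 0 to 1 at 8 weeks against control, the 1 without the male 8 week pool, and 0 in the other comparisons. Left-out fits with 1 pool in a group assume that it varies like the others. The 8 week change of Smurf2 1429045_at stayed between -1.12 and -0.85. Over all probe sets, the 161 that passed at 8 weeks against control were 0 with no filter and 1916 with trend and robust variances, and 0 to 1071 with a pool left out. Female against male, the 2244 that passed were 0 with no filter and 4183 with trend and robust variances. Scaling moved the median of all tested probe sets at 8 weeks by more than any other setting, between -0.13 as deposited and 0.14 centred. The sex term is the block that pairs pools by sex, and without it 0 of the 18 passed in each comparison between groups. The interaction could not be fitted without either control pool, and the fit on compared arrays alone equals the main one for both durations against control. Other causes of these differences were not tested.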
